A study of Mus musculus with 9 samples.

Results

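Neuropeptides are small secreted transmitters that neurons cut from longer precursor proteins and release alongside a classical transmitter. The 10 genes described here encode such precursors and were chosen by symbol, as peptides known from retinal neurons: Vip, Sst, Npy, Tac1, Penk, Cck, Crh, Gal, Adcyap1 and Cartpt. All 10 were present among the 21769 genes of the deposited count tables, and all 10 passed the filter on low counts that left 14300 genes to be tested. RNA was measured in 9 libraries of whole mouse retina, 3 per group, each made from polyadenylated RNA of 2 retinae. The rd10 mice, taken at postnatal day 61, carry a mutation of Pde6b, the gene of a rod phosphodiesterase subunit, and the labels call their retinae degenerated. The GFP mice express green fluorescent protein and have retinae labelled as normal. The promoter of that transgene was not given in the sources used here, and day 42, written beside a line called Gg13, was read as the age of this group, since both other groups have an age of their own. The wild type mice, also with retinae labelled as normal, were taken at day 48. Age and group therefore cannot be told apart.

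In the retina, most neuropeptides are made by sparse classes of amacrine cells, the inhibitory interneurons of the inner retina, and some by ganglion cells, whose axons form the optic nerve. A peptide is processed by prohormone convertases and amidating enzymes inside dense-core granules, and acts on G-protein-coupled receptors, often on cells at some distance. Transcription of several neuropeptide genes is known to be driven by cyclic AMP through a short palindromic response element near the start of the gene.

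To show where this element lies, the promoters of the members were read from RefSeq on GRCm38.p6, from 250 bases before to 50 bases after the start. Of the 10 members, 8 were in the table, with 9 promoters, and Penk and Crh are named only. The palindrome TGACGTCA, searched on both strands, was in 2 members, Sst and Cartpt, and in 588 of the 32851 promoters of the table, or 1.79%. Its core TGACG, which the palindrome holds on both strands, was in 7 members, Tac1, Cck, Vip, Cartpt, Sst, Adcyap1 and Gal, and in 20.8% of all promoters. Npy had neither in this window. A match is a description of letters and not a site of binding. The 3 promoters below were chosen to show the palindrome in both members that hold it and the core alone in Vip. They are written 5′ to 3′ along the gene's strand, with the match in capitals.
Sst, chr16:23890795-23891094, minus strand, palindrome beginning 48 bases before the start: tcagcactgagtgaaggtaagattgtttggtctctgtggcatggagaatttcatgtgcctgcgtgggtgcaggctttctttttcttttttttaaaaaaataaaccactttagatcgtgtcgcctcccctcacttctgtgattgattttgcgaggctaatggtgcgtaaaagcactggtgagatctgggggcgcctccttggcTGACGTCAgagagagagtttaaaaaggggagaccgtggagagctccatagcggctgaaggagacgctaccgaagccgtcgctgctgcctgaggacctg
Cartpt, chr13:99900634-99900933, minus strand, palindrome beginning 112 bases before the start: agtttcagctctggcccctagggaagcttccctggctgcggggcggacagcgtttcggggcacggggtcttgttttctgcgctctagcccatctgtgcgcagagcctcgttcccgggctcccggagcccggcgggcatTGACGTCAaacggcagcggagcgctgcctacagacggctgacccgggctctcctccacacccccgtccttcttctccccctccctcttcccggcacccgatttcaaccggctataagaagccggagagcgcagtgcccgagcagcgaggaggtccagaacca
Vip, chr10:5638968-5639267, plus strand, core beginning 79 bases before the start: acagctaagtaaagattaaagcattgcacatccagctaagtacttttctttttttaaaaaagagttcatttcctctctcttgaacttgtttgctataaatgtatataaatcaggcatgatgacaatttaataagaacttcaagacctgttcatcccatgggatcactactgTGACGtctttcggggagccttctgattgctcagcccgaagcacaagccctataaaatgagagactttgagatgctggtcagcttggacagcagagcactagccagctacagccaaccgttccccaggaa

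Library totals ran from 9597635 to 12149448 counts. Pde6b was at 6.01 to 30.1 CPM in rd10, against 3071 to 3378 CPM in GFP and 2683 to 3688 CPM in wild type, where CPM is a count scaled to 1000000 after TMM correction of library size, a trimmed mean of log ratios. The 12 rod markers summed to 485.5 to 1203 CPM in rd10, against 84070 to 93780 CPM in GFP and 76810 to 104000 CPM in wild type. Of the other cells that a whole retina can hold, 8 of 9 Müller glia markers rose in rd10 in both comparisons. Of 14 amacrine markers, 11 rose in each, with sums of 3624 to 3865 CPM in rd10, against 2395 to 2470 CPM in GFP and 2307 to 2447 CPM in wild type. Of 12 ganglion cell markers, 4 rose against wild type and 5 against GFP, with sums of 1888 to 2085 CPM in rd10, 1357 to 1455 CPM in GFP and 1337 to 1592 CPM in wild type. No marker of these lists was at 0 in a group. Of all genes tested, 14.5% were higher in rd10 against wild type and 15.2% against GFP. As CPM is relative to the other RNA of a library, a rise need not mean more RNA per retina. Lens markers summed to over 100 CPM in 4 libraries, with 5003 CPM in rd10 2, 4019 CPM in GFP 1, 4686 CPM in wild type 2 and 2029 CPM in wild type 3. GFP 2 stood apart in another way, with 5.97% of its scaled counts from transcripts of up to 1000 bases, against 2.85% to 4.99% in the other libraries.

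None of the 10 neuropeptide genes passed the quasi-likelihood test of edgeR, adjusted by Benjamini and Hochberg's method over all genes, in rd10 against GFP, rd10 against wild type or GFP against wild type. The count was 0 higher and 0 lower in each comparison, with 0 members at an unadjusted p under 0.05, and DESeq2's Wald test also called 0. In rd10 against wild type, 14.5% of all genes tested were higher and 13.9% lower, and in rd10 against GFP 15.2% were higher and 15% lower. In GFP against wild type, 0% of genes were higher and 0% lower. The groups' libraries did not overlap for 1 member in rd10 against wild type, where this held for 50.5% of all genes, and for 2 members in rd10 against GFP, where it held for 48.2%. They did not overlap for 1 member in GFP against wild type, where it held for 3.99%. The median log2 fold change of the members was -0.10 in rd10 against wild type, beside -0.03 over all genes, and -0.04 in rd10 against GFP, beside -0.02. The 95% interval of the fold change lay within 2-fold either way for 5 members in rd10 against wild type (Vip, Sst, Tac1, Cck and Cartpt) and for 4 in rd10 against GFP (the same without Sst). For the others a 2-fold difference was not excluded by the interval. In whole retina, fewer cells of a type and less RNA per cell cannot be told apart.

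**Figure D1:**
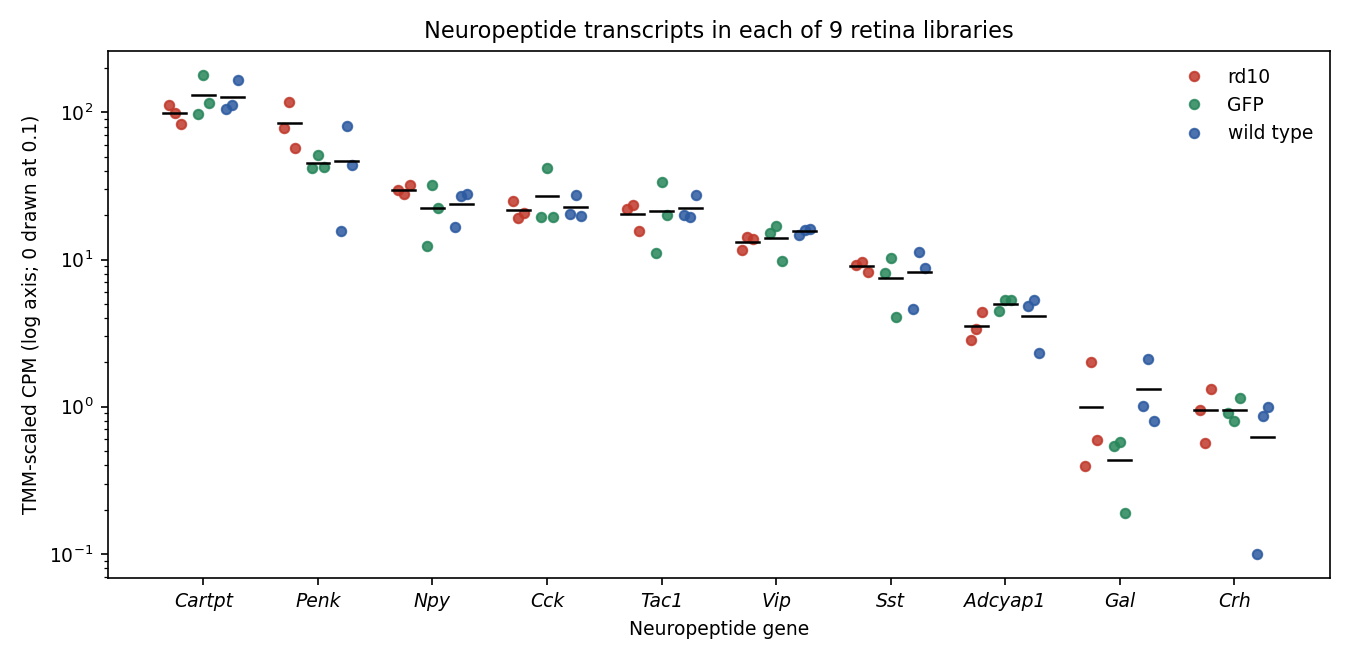
Level of each neuropeptide gene in each library, as TMM-scaled CPM on a log axis, with rd10, GFP and wild type from left to right within each gene, 1 point per library and a bar at the group mean. Cartpt and Penk have the highest CPM and Gal and Crh the lowest, and the 3 groups overlap or lie close together for each gene, with the count of 0 for Crh in wild type 1 drawn at 0.1.

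Set per kilobase of transcript, so that levels can be compared between genes, Cartpt led with a mean of 96.2 CPM per kb over the 9 libraries and a range of 66.9 to 145.5. Cartpt, which in mouse marks direction-selective ganglion cells among others, did not overlap Npy, the next gene by mean, but overlapped Penk, which reached 80.7 CPM per kb in rd10 2. Npy followed at 44.8, Penk at 40.5, Cck at 29.7, Tac1 at 17.4, Sst at 11.4 and Vip at 9.32 CPM per kb, and each of these neighbours overlapped over the 9 libraries. Vip lay above Adcyap1, at 1.25, without overlap, and Adcyap1, Gal at 1.16 and Crh at 0.637 CPM per kb overlapped each other in turn. Summed on the CPM scale, the 10 genes came to 237.2 to 316.7 CPM in rd10, 212.1 to 372.5 CPM in GFP and 203.2 to 313.2 CPM in wild type, of which Cartpt and Penk together held 59.2% to 68.3%.

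Penk encodes proenkephalin, the precursor of the enkephalins that act on opioid receptors (chromosome 4, 4060683 to 4065592 on mm9). It had 78.4, 116.9 and 57.7 CPM in rd10, against 41.9, 51.0 and 42.4 CPM in GFP and 15.7, 80.3 and 44.2 CPM in wild type. All rd10 libraries lay above all GFP libraries, while wild type spread so widely that wild type 2 reached into the rd10 range. The log2 fold change was 0.90 (SE 0.45, 95% interval -0.09 to 1.90, adjusted p = 0.15) in rd10 against GFP and 0.85 (SE 0.45, -0.15 to 1.85, adjusted p = 0.179) in rd10 against wild type, neither of which passed edgeR's test. Against wild type, the value rested on wild type 1 and wild type 2. It was 1.51 with an adjusted p of 0.0369 without wild type 2, and 0.47 with an adjusted p of 0.3 without wild type 1. Against GFP the fold change hardly moved with the wild type libraries in the fit, but the call did, at 0.91 (adjusted p = 0.0368) without wild type 1 and 0.88 (adjusted p = 0.0337) with only the rd10 and GFP libraries fitted. The highest Penk libraries of rd10 and of wild type, rd10 2 and wild type 2, were also those with the highest lens marker sums, but GFP 1, at 4019 CPM of lens markers, had the lowest Penk of its group. Without the 4 libraries over 100 CPM of lens markers, Penk was at 78.4 and 57.7 CPM in rd10, 51.0 and 42.4 CPM in GFP and 15.7 CPM in the lone wild type library, with a log2 fold change of 2.11 against wild type (adjusted p = 0.0187, the lone library being assumed to vary like the other groups). Pigment epithelium and iris markers summed to 478.8, 375.5 and 494.8 CPM in rd10, 237.6, 353 and 240.9 CPM in GFP and 138.1, 439.2 and 326.2 CPM in wild type. They ran in the order of Penk within GFP and within wild type and against it within rd10, and the part of either tissue in the Penk values was not tested. The genes with the most similar course over the 9 libraries, by root mean square difference of centred log2 CPM, were Dapl1 at 0.196 and Tgfb1 at 0.246.

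Npy encodes neuropeptide Y, a peptide of amacrine cells in the mammalian retina (chromosome 6, 49772728 to 49779504 on mm9). Its level was 29.6, 27.8 and 32.1 CPM in rd10, against 12.3, 32.2 and 22.3 CPM in GFP and 16.8, 26.9 and 28.0 CPM in wild type. The rd10 libraries lay close together near the top of both other ranges, and overlapped GFP through GFP 2 and wild type through wild type 3. The log2 fold change was 0.42 (SE 0.31, -0.27 to 1.11, adjusted p = 0.319) against GFP and 0.32 (SE 0.31, -0.37 to 1.01, adjusted p = 0.464) against wild type. Npy has the shortest transcript of the members, at 566 bases, and GFP 2 and wild type 3, which were highest for it in their groups, also had the largest shares of short transcripts, at 5.97% and 4.99% of scaled counts, against 2.85% to 3.90% in rd10. Over all genes, those with transcripts of up to 1000 bases had a median log2 fold change of -0.43 in rd10 against GFP and -0.38 against wild type, while those over 4000 bases had 0.15 and 0.19. Of the members, 4 have transcripts of up to 1000 bases and 9 of up to 2000 bases, where the median over all tested genes was 3226 bases. With each library's own trend of level on transcript length removed, Npy alone of the members was higher in rd10. Its log2 fold change was 0.91 (adjusted p = 0.00572) against GFP, where 17.5% of all genes were higher. Against wild type it was 0.78 (adjusted p = 0.0132), where 16.8% were. This step also takes out differences between libraries of a group. Without GFP 2 and wild type 3, the change against GFP was 0.78 with an adjusted p of 0.0487. Acot9 and Hist3h2ba followed Npy most closely over the 9 libraries, at a root mean square difference of 0.113 and 0.132 log2 units.

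**Figure D2:**
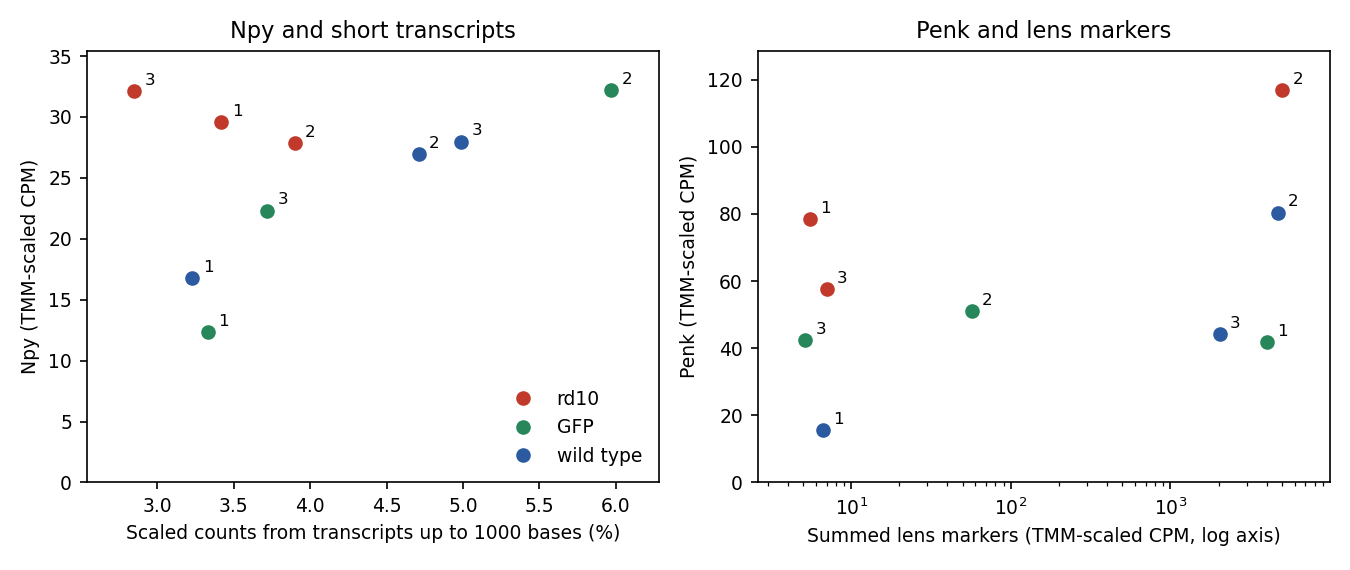
Left, Npy level in TMM-scaled CPM against the share of scaled counts from transcripts of up to 1000 bases, and right, Penk level against the summed lens markers on a log axis, with 1 point per library, numbered by replicate. Npy is high in all rd10 libraries at low shares of short transcripts. Libraries rd10 2 and wild type 2 carry both the highest Penk and the highest lens sums of their groups, while GFP 1 has the highest lens sum and the lowest Penk of its group.

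Cartpt encodes the precursor of the CART peptide (chromosome 13, 100668439 to 100670638 on mm9), and its promoter holds the palindrome printed above. It stood at 112.6, 99.5 and 82.8 CPM in rd10, against 98.1, 180.2 and 115.5 CPM in GFP and 105.2, 113.0 and 164.8 CPM in wild type. The ranges overlapped, with GFP 2 and wild type 3 well above the other 7 libraries. The log2 fold change was -0.42 (SE 0.25, -0.97 to 0.13, adjusted p = 0.225) in rd10 against GFP and -0.38 (SE 0.25, -0.93 to 0.17, adjusted p = 0.276) in rd10 against wild type. Mrps10 and Dpm1 had the most similar course over the libraries, at a root mean square difference of 0.072 and 0.081 log2 units.

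Vip encodes vasoactive intestinal peptide, made in the mouse retina by a class of amacrine cells (chromosome 10, 4698927 to 4707323 on mm9). It had 11.5, 14.2 and 13.8 CPM in rd10, against 15.2, 17.0 and 9.82 CPM in GFP and 14.7, 15.8 and 16.1 CPM in wild type. The rd10 libraries all lay below wild type, by a narrow gap, and inside the range of GFP. The log2 fold change was -0.08 (SE 0.23, -0.58 to 0.41, adjusted p = 0.795) against GFP and -0.24 (SE 0.23, -0.73 to 0.26, adjusted p = 0.451) against wild type. Adcyap1 encodes PACAP, a peptide related to VIP and found in the light-sensitive ganglion cells that express melanopsin (chromosome 17, 93598762 to 93604829 on mm9). Its level was 2.85, 3.38 and 4.43 CPM in rd10, against 4.44, 5.27 and 5.34 CPM in GFP and 4.85, 5.29 and 2.31 CPM in wild type. The rd10 libraries lay just below GFP without overlap and between wild type 3 and the other wild type libraries, and neither comparison passed, with log2 fold changes of -0.50 (SE 0.35, -1.28 to 0.29, adjusted p = 0.304) against GFP and -0.22 (SE 0.36, -1.01 to 0.56, adjusted p = 0.662) against wild type.

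Cck, Tac1 and Sst, the genes of cholecystokinin, of the substance P precursor and of somatostatin, did not pass in any comparison. Cck averaged 21.6 ± 3.07 CPM in rd10, 26.9 ± 12.8 CPM in GFP and 22.6 ± 4.36 CPM in wild type (SD, n = 3 each). Tac1 averaged 20.4 ± 4.17 CPM in rd10, 21.5 ± 11.3 CPM in GFP and 22.2 ± 4.46 CPM in wild type. Sst, whose promoter holds the palindrome, averaged 9.03 ± 0.708 CPM in rd10, 7.50 ± 3.15 CPM in GFP and 8.21 ± 3.34 CPM in wild type. Each of the 3 genes was highest in GFP 2 among the GFP libraries, and their rd10 libraries overlapped both other ranges. Cck lies at chromosome 9, 121398942 to 121404807, Tac1 at chromosome 6, 7505071 to 7512973, and Sst at chromosome 16, 23889667 to 23890930, all on mm9. In rd10 against GFP the log2 fold change was -0.31 for Cck (SE 0.30), -0.07 for Tac1 (SE 0.34) and 0.27 for Sst (SE 0.37), and in rd10 against wild type it was -0.07, -0.13 and 0.14 with the same errors, with adjusted p from 0.443 to 0.888 over these 6 tests.

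Gal and Crh were near the limit of detection. Gal, the galanin gene (chromosome 19, 3409917 to 3414457 on mm9), had 5, 25 and 8 counts in rd10, 6, 5 and 2 counts in GFP and 10, 22 and 8 counts in wild type. All GFP libraries lay below all wild type libraries, yet the log2 fold change of -1.58 in GFP against wild type (SE 0.77, -3.28 to 0.12) had an adjusted p of 1.0 by edgeR's test. In rd10 the gene spread over both ranges, with a log2 fold change of 1.18 (SE 0.77, adjusted p = 0.263) against GFP and -0.40 (SE 0.69, adjusted p = 0.691) against wild type. As with Penk, the highest rd10 and wild type libraries were rd10 2 and wild type 2, which hold the highest lens marker sums of their groups. In GFP the highest was GFP 2, at 0.573 CPM, and GFP 1, at 4019 CPM of lens markers, had 0.544 CPM. Crh, the gene of corticotropin-releasing hormone (chromosome 3, 19593401 to 19595396 on mm9), had 12, 7 and 18 counts in rd10, 10, 7 and 12 counts in GFP and 0, 9 and 10 counts in wild type. The count of 0 in wild type 1 allows up to 0.303 CPM there, counting error only. The rd10 and GFP counts overlapped fully, with a log2 fold change of -0.01 (SE 0.76, adjusted p = 0.995), and that against wild type was 0.59 (SE 0.79, adjusted p = 0.597). The interval against wild type, -1.15 to 2.34, spans changes of more than 2-fold in both directions.

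In GFP against wild type, 2 groups with retinae labelled as normal, the log2 fold changes of the members ran from -1.58 for Gal to 0.60 for Crh, with an adjusted p of 1.0 for all 10 by edgeR's test. Cartpt differed by 0.04, Penk and Tac1 by -0.05 each, Npy by -0.10, Sst by -0.14, Vip by -0.15, Cck by 0.25 and Adcyap1 by 0.27. Within groups, single libraries were high or low for many members at once. GFP 2 was the highest GFP library for 8 of the 10 members and wild type 1 was the lowest wild type library for 6, while GFP 1 was the lowest GFP library for 5. Both comparisons of rd10 use the same 3 rd10 libraries, and the comparison of GFP with wild type uses the controls of both.

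Because amacrine and ganglion cell markers rose in rd10, the neuropeptide genes were also set against them by scaling each library to the geometric mean count of those markers. This alternative was chosen after the values had been seen. Scaled to amacrine markers, the median of all genes shifted to -0.597 in rd10 against GFP and to -0.644 in rd10 against wild type, so that a gene with an unchanged share of counts appears lower by about this amount. Against GFP, 4 members were then lower where 46.4% of all genes were: the log2 fold change was -0.98 for Cartpt (SE 0.24, adjusted p = 0.0057), -1.07 for Adcyap1 (SE 0.37, adjusted p = 0.0307), -0.88 for Cck (SE 0.30, adjusted p = 0.0288) and -0.66 for Vip (SE 0.23, adjusted p = 0.0325). Against wild type, 2 members were lower where 48.1% of all genes were: Cartpt at -0.98 (SE 0.24, adjusted p = 0.00551), or 1.97-fold, and Vip at -0.85 (SE 0.23, adjusted p = 0.00907), or 1.80-fold. Scaled to ganglion cell markers, the same 4 members were lower against GFP, where 50.1% of genes were, and the same 2 against wild type, where 46.7% were. The members' median was -0.61 against GFP and -0.71 against wild type on the amacrine scale, close to that of all genes. Penk kept a positive value, 0.34 against GFP and 0.22 against wild type (adjusted p = 0.575 and 0.715). On both marker scales Vip and Cartpt were thus lower in rd10 than in either normal group, as were 46.4% to 50.1% of all genes.

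**Figure D3:**
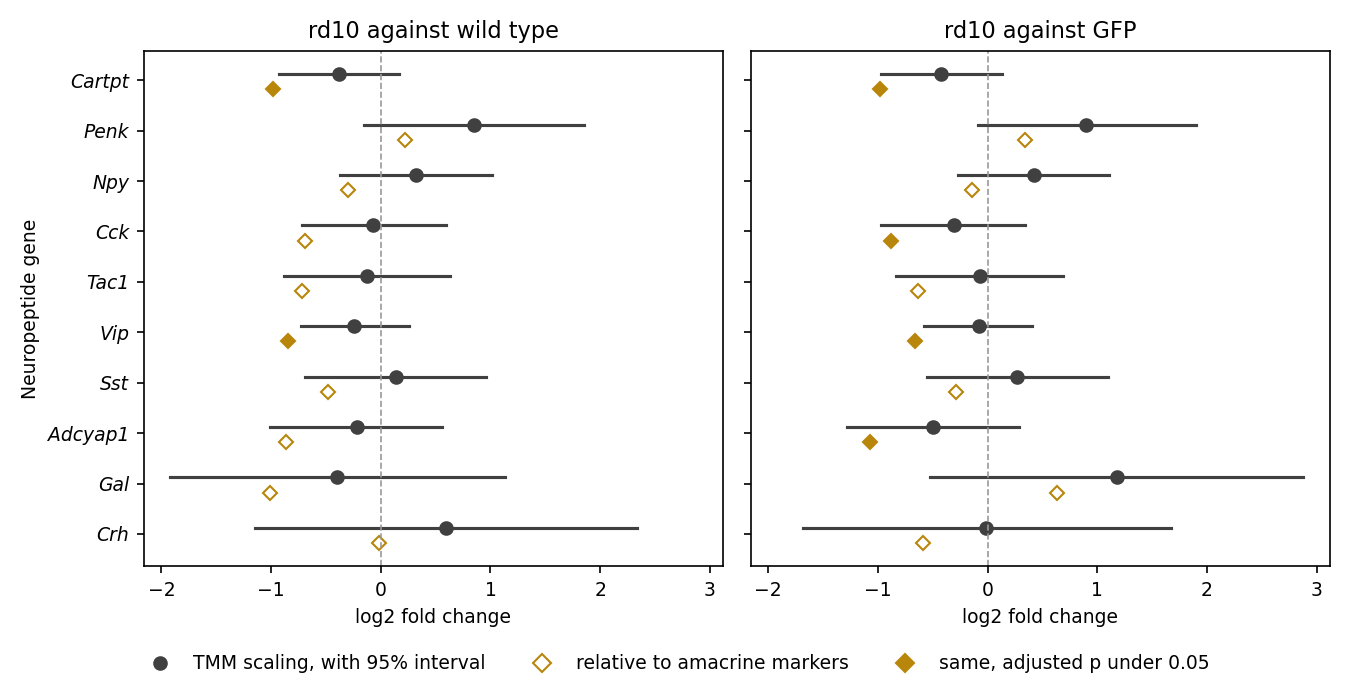
Log2 fold change of each neuropeptide gene in rd10 against wild type and in rd10 against GFP, as circles with 95% intervals under TMM scaling and as diamonds relative to amacrine markers, filled where the adjusted p was under 0.05. All intervals under TMM scaling cross 0, and the diamonds lie about 0.6 lower, with Vip and Cartpt filled in both panels.

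Several receptors of these and related peptides rose in rd10. Of 25 receptor genes, 15 were tested. In rd10 against wild type 6 rose and 9 did not pass, none fell, and the median log2 fold change was 0.67. Of all genes 14.5% rose and 13.9% fell there, with a median of -0.03. In rd10 against GFP 5 rose and 10 did not pass, none fell, and the median was 0.62. Of all genes 15.2% rose and 15% fell there, with a median of -0.02. Vipr2, a receptor for both VIP and PACAP, had 79.4, 76.5 and 79.5 CPM in rd10, against 60.7, 40.3 and 46.5 CPM in GFP and 57.3, 45.0 and 45.2 CPM in wild type, with a log2 fold change of 0.67 in each comparison (adjusted p = 0.0162 against GFP and 0.0164 against wild type). All rd10 libraries lay above both other groups, although leaving out GFP 3, rd10 1 or rd10 3 against GFP, or wild type 2, wild type 3 or rd10 1 against wild type, brought the adjusted p to between 0.0512 and 0.0626. Adcyap1r1, the receptor preferring PACAP, was 1.78-fold higher than in GFP (adjusted p = 0.0365) and 2.27-fold higher than in wild type (adjusted p = 0.00902), while its ligand gene Adcyap1 did not pass. Tacr3, a tachykinin receptor known from bipolar cells, was 1.77-fold higher than in GFP (adjusted p = 0.0102) and 2.01-fold higher than in wild type (adjusted p = 0.00414). Oprl1, the nociceptin receptor, was 1.65-fold higher than in GFP (adjusted p = 0.0349) and 1.98-fold higher than in wild type (adjusted p = 0.0103, and 0.0503 without rd10 1). Cckar, a cholecystokinin receptor, rose against GFP from few reads, with 13 counts in each rd10 library against 3, 2 and 0 counts in GFP and 6, 7 and 2 counts in wild type (adjusted p = 0.0346 against GFP and 0.282 against wild type). Its call ended without any 1 of rd10 1, rd10 2, rd10 3, GFP 2 or GFP 3 (adjusted p = 0.0506 to 0.0899), and that of Oprl1 against GFP without rd10 1, rd10 2, GFP 2 or GFP 3 (adjusted p = 0.0569 to 0.151). Cckbr and Sstr1 were the other receptors higher than in wild type. Amacrine, ganglion cell and Müller glia markers rose in rd10 too, the last with a median of 1.01 against GFP and 1.05 against wild type. The part of any cell type in these receptor levels was not tested. On the amacrine scale 2.02% of all genes were higher against wild type, around a median of -0.644. There Vipr2, Adcyap1r1, Tacr3 and Oprl1 no longer passed against wild type (log2 fold change 0.06 to 0.56, adjusted p = 0.118 to 0.809). Nor did they without the 4 libraries with lens markers (0.47 to 1.06, adjusted p = 0.162 to 0.408), a fit that leaves 1 wild type library and in which 86 genes were higher and 457 lower than in wild type, against 2067 and 1988 with all libraries. Scaled to ganglion cell markers, Vipr2 had a log2 fold change of -0.00 against GFP, where the median of all genes was -0.692.

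Genes that process peptides or fill secretory granules also moved in rd10, and in both directions. All 20 of the list were tested. Against wild type 9 rose and 2 fell, with a median of 0.59, where 14.5% of all genes rose and 13.9% fell. Against GFP 10 rose and 2 fell, with a median of 0.51, where 15.2% of all genes rose and 15% fell. Pam, the amidating enzyme, had 152.0, 166.1 and 170.9 CPM in rd10, against 105.0, 83.9 and 100.4 CPM in GFP and 95.1, 103.2 and 78.2 CPM in wild type, with no overlap and a log2 fold change of 0.76 (adjusted p = 0.0054) against GFP and 0.82 (adjusted p = 0.00377) against wild type. Pcsk2, a prohormone convertase, rose by 0.77 (adjusted p = 0.0046) against GFP and by 0.64 (adjusted p = 0.012) against wild type. Ptprn, a granule membrane protein, rose by 0.87 (adjusted p = 0.00402) against GFP and by 0.59 (adjusted p = 0.0248) against wild type. Cadps2, which primes dense-core granules, rose 2.68-fold against wild type (adjusted p = 0.00556) and 2.3-fold against GFP (adjusted p = 0.0114). The 2 that fell were Cpe, the carboxypeptidase that trims peptide ends, with 788.3, 787.6 and 809.3 CPM in rd10, against 1321, 1818 and 1524 CPM in GFP and 1423, 1812 and 1402 CPM in wild type, and Vgf, a granin-like precursor. Cpe changed by -0.97 against GFP (adjusted p = 0.00274) and by -0.96 against wild type (adjusted p = 0.00298), and Vgf by -0.96 (adjusted p = 0.0062) and -1.06 (adjusted p = 0.00405). As with the receptors, amacrine, ganglion cell and Müller glia markers rose in rd10 too. The 12 rod markers summed to 485.5 to 1203 CPM in rd10, against 84070 to 93780 CPM in GFP and 76810 to 104000 CPM in wild type. The part of any of these cell types in the changes, up or down, was not tested. On the amacrine scale 2.73% of all genes were higher and 46.4% lower against GFP. Against wild type 2.02% were higher and 48.1% lower. Scaled to amacrine markers, Pam had a log2 fold change of 0.18 (adjusted p = 0.449) against GFP and 0.20 (adjusted p = 0.385) against wild type, Pcsk2 0.19 (adjusted p = 0.384) and Ptprn 0.28 (adjusted p = 0.178) against GFP, and Cadps2 0.80 (adjusted p = 0.054) against wild type, while Cpe and Vgf stayed lower. The smaller fit without the 4 libraries with lens markers leaves 1 wild type library. Its log2 fold change against wild type was -0.84 for Cpe, 0.76 for Pam, -1.08 for Vgf and 1.17 for Cadps2. Against GFP, Cpe stayed between -1.63 and -0.64 and past the threshold in every alternative run.

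Of 37 further neuropeptide and peptide hormone genes, 14 were tested. In rd10 against wild type 2 rose and 1 fell, where 14.5% of all genes rose and 13.9% fell, and the median log2 fold change was -0.19. Against GFP 3 rose and 1 fell, where 15.2% of all genes rose and 15% fell, and the median was -0.40. Calca, the gene of calcitonin gene-related peptide, had 52, 65 and 48 counts in rd10, against 15, 10 and 4 counts in GFP and 9, 8 and 12 counts in wild type, and was 4.43-fold higher in each comparison (adjusted p = 0.00809 against GFP and 0.00836 against wild type). Igf1, a growth factor, was 1.82-fold higher than in GFP (adjusted p = 0.0128) and 1.91-fold higher than in wild type (adjusted p = 0.00929). Pdyn, the precursor of dynorphins, was 2.17-fold higher than in GFP (adjusted p = 0.0493), a call that ended without any 1 library other than GFP 3 (adjusted p = 0.0582 to 0.135), and 1.90-fold higher than in wild type without passing (adjusted p = 0.0938). Nucb2, the precursor of nesfatin, was the gene that fell, at 14.8, 15.4 and 15.3 CPM in rd10, against 46.7, 54.3 and 56.4 CPM in GFP and 51.6, 54.8 and 49.4 CPM in wild type, without overlap (adjusted p = 1.32e-05 against GFP and 1.44e-05 against wild type). Its log2 fold change stayed between -2.46 and -1.46 in every alternative run, all of them past the threshold. Rod markers fell in rd10 too, and the part of any cell type in the levels of these further peptide genes was not tested. Calca kept a log2 fold change of at least 1.50 against GFP and 1.55 against wild type in every alternative, although without the libraries with lens markers it did not pass (2.33, adjusted p = 0.0638 against GFP, and 2.06, adjusted p = 0.263 against wild type). Igf1 did not pass there either, with log2 fold changes of 0.76 against GFP and 0.50 against wild type. Nor did it pass when scaled to amacrine markers (0.29, adjusted p = 0.291 against GFP, and 0.32, adjusted p = 0.237 against wild type). On that amacrine scale 2.73% of all genes were higher against GFP and 2.02% against wild type. In GFP against wild type none of the receptor, granule or further peptide genes passed edgeR's test, and the most abundant of each list, Vipr2, Cpe and Nucb2, had log2 fold changes of 0.00, 0.01 and 0.01.

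**Figure D4:**
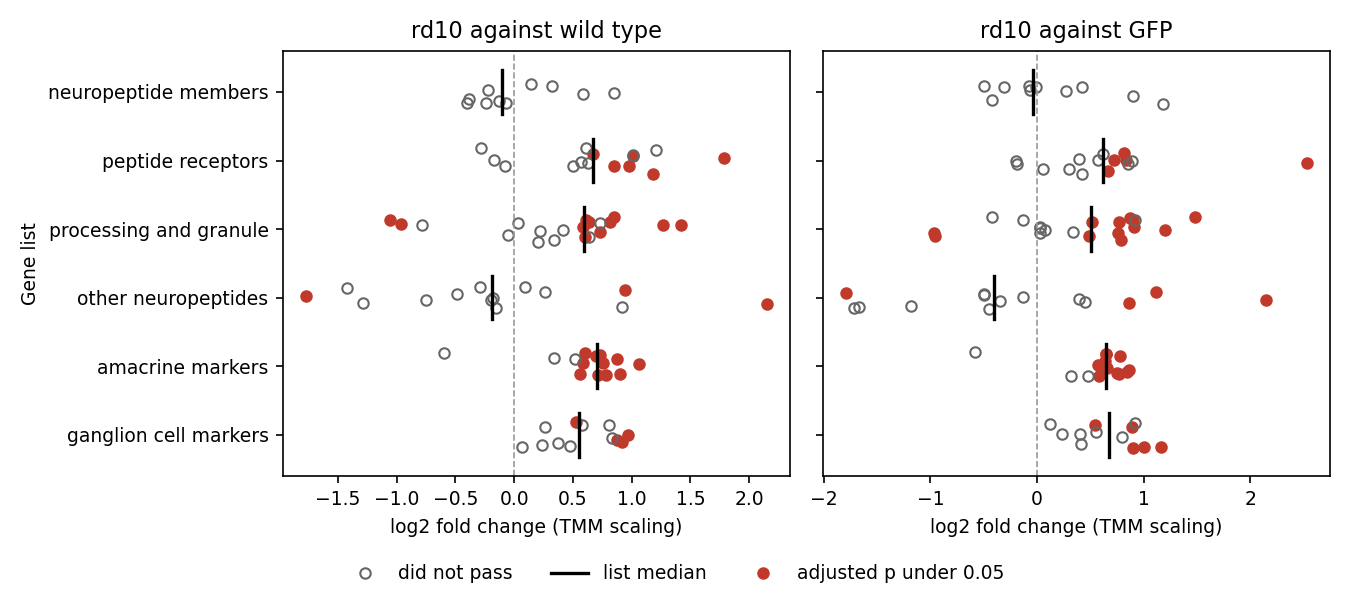
Log2 fold change of every tested gene of the neuropeptide, receptor, granule, further peptide, amacrine and ganglion cell lists, in rd10 against wild type and in rd10 against GFP, with filled points for an adjusted p under 0.05 and a line at the list's median. The neuropeptide genes centre near 0 with no filled point, while the receptor, granule, amacrine and ganglion cell lists centre between 0.51 and 0.71.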

How the data were processed

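The deposited files hold 1 count per gene and library, read as raw counts because all values are whole and the totals differ. The authors counted reads on mm9, per the submitters' processing notes; the sources used here do not give the aligner, counter, annotation or strand setting. Per the labels, the 3 replicates of a group were biological, libraries were made from polyadenylated RNA with random hexamers, and each held 2 retinae. Genes were kept by filterByExpr (minimum count 10, minimum total 15), libraries were scaled by TMM, and 1 mean per group was fitted to all 9 libraries with edgeR 4.0.16 in R 4.3.3. Groups were compared by the quasi-likelihood test, adjusted by the Benjamini-Hochberg method over 14300 genes, with a threshold of 0.05. The procedure was tested on simulated data first. DESeq2 1.42.0, other scalings, filters and left-out libraries were alternatives. Adjusted p values come from edgeR unless DESeq2 is named. Transcript lengths are the longest protein-coding transcript of GENCODE M21 by symbol, found for 98.9% of tested genes. Positions are those of the files, 1-based; no member overlaps another listed gene.

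The members, gene lists and tests were chosen with earlier results of these data known. Besides all 10 members, up to 4 genes per list and comparison with the smallest adjusted p under 0.05 were named, or, where none passed, the most abundant. For the 3 members with the highest CPM, the 2 genes with the smallest root mean square difference of centred log2 CPM (prior count of 2) were also named. Adcyap1r1 against GFP, Vgf against GFP, Cckbr, Sstr1 and values of named genes in the other comparison were added after their values were seen. All 14 amacrine entries matched a gene, 3 of them (Tcfap2a, Tcfap2b and Tcfap2c) through an older symbol in RefSeq. The lists of 25 receptors, 20 granule genes, 37 further peptides and 12, 12, 9, 17 and 9 markers of ganglion cells, rods, Müller glia, lens, and pigment epithelium and iris all matched.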

Additional observations from a re-analysis of the deposited data

How the results depend on the processing

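Under the alternatives run, 547 values of the 10 members kept their direction and their side of the threshold. A further 82 changed sign, most of them near 0, and 19 passed the threshold. Of the other named genes 444 values kept both, 79 no longer passed and 1 changed sign. Any value without an adjusted p was counted as keeping its side. DESeq2's Wald test or size factors, no filter on low counts, a minimum mean of 5 CPM, upper quartile scaling and library totals each left 0 members called. In rd10 against GFP the count of higher members became 1 with only these groups fitted (Penk), where 1980 of 14093 genes were higher. It was also 1 without GFP 2 and wild type 3 (Npy), where 2434 of 14447 genes were higher. With the length trend removed it was 1 (Npy), where 17.5% of all genes were higher. The leave-one-out fits gave 0 to 1, with 1297 to 2266 genes higher. In rd10 against wild type the count became 1 with the length trend removed (Npy), where 16.8% of all genes were higher. There the leave-one-out fits gave 0 to 1, with 1269 to 2891 genes higher. Without the libraries over 100 CPM of lens markers, which leaves 1 wild type library, Penk had a log2 fold change of 2.11. Scaled to amacrine or to ganglion cell markers, 4 members were lower against GFP and 2 against wild type, where 46.4% to 50.1% of all genes were. Apart from these marker scalings, where the median of all genes shifts by construction, the cause was not tested.

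The labels do not say whether replicate numbers pair the libraries. Of 9 same-numbered pairs, 4 had a correlation of deviations over 0.1, within a range of -0.372 to 0.357. Differently numbered pairs ran from -0.426 to 0.485, so these values do not settle whether the numbers pair libraries. With the replicate block, 0 members were called in each comparison and 1996 genes were higher and 1912 lower in rd10 against GFP, and 1817 and 1789 against wild type. Under the replicate block Tac1 turned to 0.01 in rd10 against GFP and Penk to 0.14 in GFP against wild type.

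The other log2 fold changes that changed sign, except that of Vipr2, were past the threshold neither before nor after. In rd10 against GFP, library totals gave 0.02 for Cck, 0.31 for Crh, 0.27 for Tac1 and 0.24 for Vip; upper quartile scaling gave 0.09 for Crh, 0.03 for Tac1 and 0.02 for Vip. Removing the length trend gave 0.09 for Cck, 0.18 for Crh, 0.21 for Tac1 and 0.08 for Vip, and leaving out GFP 2 and wild type 3 gave 0.15 for Cck, 0.39 for Tac1 and 0.07 for Vip. Without the lens libraries Crh had 0.21. Amacrine scaling gave -0.14 for Npy and -0.29 for Sst, and ganglion scaling -0.24 for Npy, -0.38 for Sst and -0.00 for Vipr2, which had passed. In rd10 against wild type, library totals gave 0.07 for Adcyap1, 0.23 for Cck, 0.16 for Tac1 and 0.05 for Vip, and upper quartile scaling 0.01 for Cck. Removing the length trend gave 0.26 for Cck and 0.11 for Tac1, the fit without lens libraries 0.16 for Cck, and that without GFP 2 and wild type 3 gave 0.05 for Tac1. Amacrine scaling gave -0.30 for Npy, -0.48 for Sst and -0.02 for Crh, and ganglion scaling -0.27 for Npy and -0.45 for Sst. In GFP against wild type, library totals gave -0.01 for Cartpt, and the fit without lens libraries 0.70 for Npy, 1.58 for Penk, 0.62 for Sst and 0.41 for Tac1. Without GFP 2 and wild type 3, Adcyap1 had -0.05, Cartpt -0.03 and Cck -0.30. Ganglion scaling gave 0.03 for Penk and 0.01 for Tac1, and removing the length trend 0.03 for Penk.

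Over the leave-one-out fits the values of rd10 against GFP ran from -0.48 to 0.15 for Cck, -0.32 to 0.27 for Crh, -0.01 to 0.57 for Sst, -0.37 to 0.40 for Tac1 and -0.27 to 0.07 for Vip. Those of rd10 against wild type ran from -0.51 to 0.00 for Adcyap1, -0.16 to 0.12 for Cck, -1.36 to 0.15 for Gal, -0.12 to 0.45 for Sst and -0.21 to 0.06 for Tac1. In GFP against wild type they ran from -0.02 to 0.49 for Adcyap1, -0.24 to 0.27 for Cartpt, -0.19 to 0.44 for Cck, -0.44 to 0.20 for Npy, -0.44 to 0.59 for Penk, -0.41 to 0.17 for Sst, -0.50 to 0.27 for Tac1 and -0.29 to 0.06 for Vip. With 0 to 25 counts per library, Gal and Crh are limited by depth.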

Other observations

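Of the 37 further neuropeptide and peptide hormone genes, 8 had no count in any of the 9 libraries: Nts, Ucn3, Avp, Prok2, Rln3, Nmu, Nms and Pyy, the genes of neurotensin, urocortin 3, vasopressin, prokineticin 2, relaxin 3, neuromedins U and S and peptide YY. A count of 0 over all libraries allows up to 0.0303 CPM, counting error only. Among the 25 receptors, Ppyr1, a receptor of the neuropeptide Y family, was the only gene without a count.

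Among the receptors that did not pass in either comparison of rd10, Npy1r, a receptor for neuropeptide Y, had a log2 fold change of -0.19 against GFP (adjusted p = 0.68) and -0.08 against wild type (adjusted p = 0.882). Crhr1, a receptor for corticotropin-releasing hormone, had 0.57 (adjusted p = 0.124) and 0.63 (adjusted p = 0.0954). Of the granins, Chga had 0.07 (adjusted p = 0.795) and 0.03 (adjusted p = 0.905), and Chgb had -0.13 (adjusted p = 0.539) and -0.05 (adjusted p = 0.824). Scg3 did pass, at 0.49 (adjusted p = 0.0442) and 0.61 (adjusted p = 0.0203). Scg2 did not, at 0.34 (adjusted p = 0.096) and 0.42 (adjusted p = 0.0504). Nor did Scg5, at -0.42 (adjusted p = 0.312) and -0.78 (adjusted p = 0.0769), while the granin-like Vgf fell as given above. Crhbp, which binds corticotropin-releasing hormone, had 48.8, 67.1 and 37.4 CPM in rd10, against 17.5 to 19.4 CPM in GFP and 11.9, 29.7 and 21.9 CPM in wild type. Its libraries did not overlap, and its log2 fold change was 1.48 against GFP (adjusted p = 0.0062) and 1.27 against wild type (adjusted p = 0.0127), while Crh itself did not pass. As for Penk, its highest libraries in rd10 and wild type were rd10 2 and wild type 2, whose lens marker sums were 5003 and 4686 CPM. GFP 1, at 4019 CPM of lens markers, had the lowest Crhbp of its group, at 17.5 CPM. The part of lens tissue was not tested. These genes were picked after their values were seen.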
